A study of Gasterosteus aculeatus with 12 samples.

Results

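NFAT5 is annotated as 2 genes in the stickleback genome, *NFAT5* (1 of 2), ENSGACG00000015747, and *NFAT5* (2 of 2), ENSGACG00000012216. They were chosen by name, as the 2 of the 20860 genes of the expression table that are annotated as NFAT5. Kidney RNA was sequenced in 12 libraries, 3 for each of 4 treatments. FW00K, FW11K and FW33K were adult female sticklebacks from a freshwater lake that had spent 30 days at a salinity of 0, 11 or 33 g/L. SW33K were adult females of a saltwater population held for the same time at 33 g/L. All 4 treatments shared capture in the wild, the 30-day acclimation and the whole kidney as tissue. Saltwater fish were sequenced at 33 g/L only, so the comparison of populations holds at that salinity alone.

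NFAT5, also called TonEBP, is a transcription factor of the Rel family that in mammals is activated when the fluid around cells becomes hypertonic. In the mammalian kidney medulla it raises genes for the uptake and synthesis of organic osmolytes such as sorbitol, myo-inositol, betaine and taurine. Much of its control in mammals acts on the protein, through phosphorylation and entry into the nucleus, which RNA levels do not measure. Teleost fish often carry a pair of copies of such genes, left from a genome duplication early in their history.

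Expression is given as FPKM, the fragments counted for a gene, relative to the length of its transcript and to all mapped fragments of the library, so that levels can be set side by side between genes. Both copies were among the 15503 genes whose mean over the libraries reached 1 FPKM. They were tested with limma on log2(FPKM + 1), which understates the change of low genes, and a gene was called at a Benjamini-Hochberg adjusted p under 0.01. The typical level of the tested genes shifted between treatments on this scale. Relative to FW00K, the median gene changed by -0.34 in FW11K, -1.20 in FW33K and -0.69 in SW33K on the log2 scale. It changed by -0.82 between FW11K and FW33K, and by 0.47 between FW33K and SW33K. Median-ratio scaling, which divides each library by its typical ratio to the mean of all libraries, brought these medians to between -0.05 and 0.02, and values after this scaling are named as such below. In every treatment replicates 2 and 3 resembled each other more (r = 0.990 to 0.992 across genes) than either resembled replicate 1 (r = 0.846 to 0.945). By the methods the libraries of a treatment came from separate fish, and how replicates 2 and 3 came to be so alike was not tested. FW11K replicate 1 and FW33K replicate 1 had the fewest reads by the read numbers listed for the libraries. Results are also given with replicates 2 and 3 of each treatment averaged as 1 sample where that ended a call.

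Both copies were detected in all 12 libraries, at low to middling levels. *NFAT5* (1 of 2) stood above 16.6% to 27.5% of the tested genes in a library, and *NFAT5* (2 of 2) above 28.7% to 49.8%. *NFAT5* (2 of 2) had the higher FPKM in each library. Where reads fit both copies, the estimate of FPKM could divide them wrongly between the genes, and this was not tested.

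*NFAT5* (1 of 2) was highest in freshwater. Its FPKM was 7.95, 6.80 and 7.01 in the FW00K libraries, with a mean of 7.25 ± 0.611 (SD, n = 3). It was 3.58, 3.19 and 2.997 in FW11K, with a mean of 3.25 ± 0.295 (SD, n = 3). The 3 freshwater libraries lay above every other library, and those at 11 g/L lay between them and both groups at 33 g/L. In FW33K the FPKM was 1.81, 1.53 and 1.66, with a mean of 1.67 ± 0.144 (SD, n = 3). In SW33K it was 1.54, 2.56 and 2.54, with a mean of 2.21 ± 0.584 (SD, n = 3). Replicate 1 of SW33K fell inside the FW33K range, while the other 2 SW33K libraries lay above it.

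*NFAT5* (2 of 2) followed the same order over salinity in the freshwater fish, but its SW33K libraries all lay above those of FW33K. Its FPKM was 11.5, 13.2 and 12.2 in FW00K, with a mean of 12.3 ± 0.894 (SD, n = 3). It was 6.83, 5.65 and 5.76 in FW11K, with a mean of 6.08 ± 0.654 (SD, n = 3). It was 2.22, 4.20 and 3.72 in FW33K, with a mean of 3.38 ± 1.03 (SD, n = 3). Replicate 1 of FW33K was the lowest library of all, and the median FPKM of the tested genes, 4.39, was also lowest there. In SW33K the FPKM was 5.07, 10.8 and 10.5, with a mean of 8.77 ± 3.22 (SD, n = 3). Replicates 2 and 3 of SW33K lay between FW00K and FW11K, and replicate 1 lay below every FW11K library and above every FW33K library. The median FPKM of the tested genes was also lower in SW33K replicate 1, at 5.43, than in SW33K replicates 2 and 3, at 10.99 and 10.56.

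**Figure D1:**
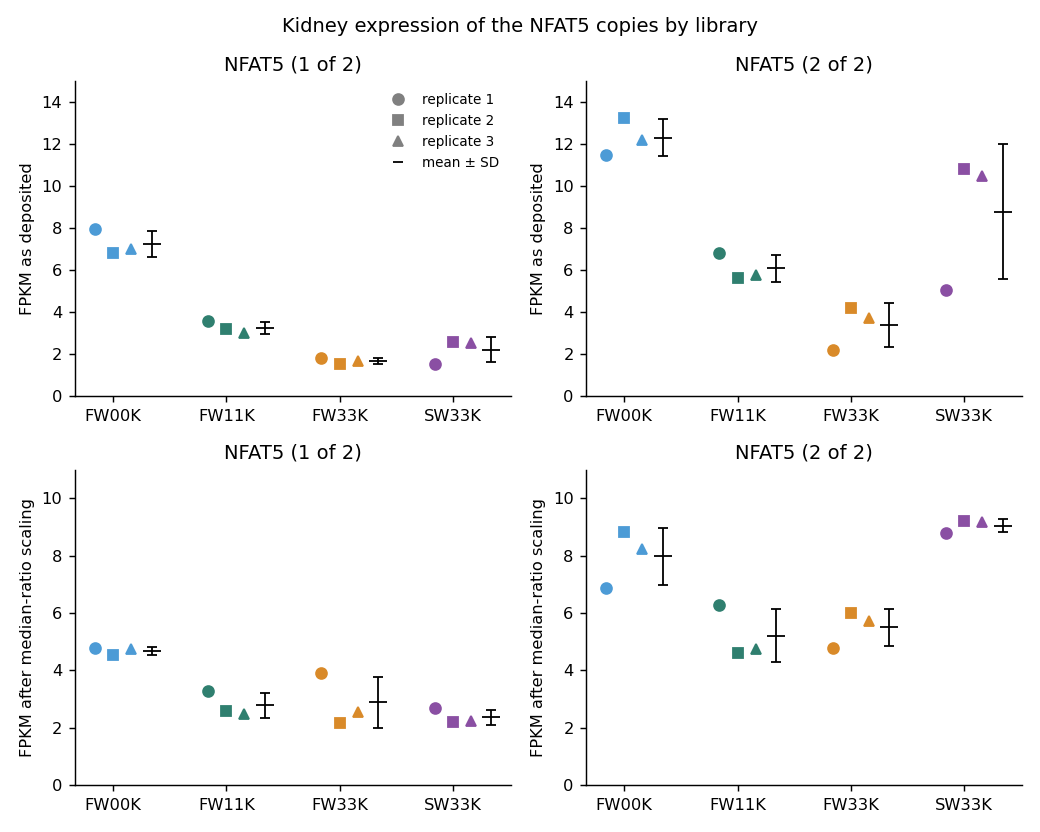
Level of each NFAT5 copy in the 12 kidney libraries, as deposited FPKM (top) and after median-ratio scaling (bottom), by treatment. Coloured symbols are single libraries, with replicates 1, 2 and 3 as circle, square and triangle, and the bar is the mean ± SD of 3 libraries. *NFAT5* (1 of 2) is highest in FW00K on both scales, whereas *NFAT5* (2 of 2) in SW33K is at 8.80 to 9.20 after scaling, above all FW11K and FW33K libraries.

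The comparison of FW00K with FW33K asks how freshwater fish differ after acclimation to sea water. The mean FPKM of *NFAT5* (1 of 2) was 4.35-fold lower in FW33K, with a log2 change of -1.63 ± 0.23 (SE, limma adjusted p = 0.000153, 3 libraries in each group). The mean of *NFAT5* (2 of 2) was 3.64-fold lower, with a log2 change of -1.63 ± 0.29 (SE, limma adjusted p = 0.000582). Both copies thus passed the threshold as lower, as did 49.6% of all tested genes (51.3% in either direction). The study, which required several tests on read counts to agree, did not class either copy as salt-responsive. It did report that both decreased with salinity in the freshwater fish. FW33K and FW00K libraries did not overlap for either copy, nor did they for 83.5% of the tested genes. The changes lay -0.43 from the median of all genes for each copy, and 26.1% and 25.98% of genes had a lower change than copy 1 and copy 2.

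Most of the change of each copy was thus shared with the median gene. After median-ratio scaling the log2 change was -0.57 for *NFAT5* (1 of 2) (limma adjusted p = 0.0336) and -0.47 for *NFAT5* (2 of 2) (limma adjusted p = 0.0378), so neither was called, where 18.8% of genes were. When replicates 2 and 3 were averaged, the deposited values gave -1.64 (limma adjusted p = 0.0217) and -1.71 (limma adjusted p = 0.0214), again past no threshold. The groups stayed apart on the scaled values too, with *NFAT5* (1 of 2) at 4.52 to 4.77 in FW00K against 2.17 to 3.90 in FW33K. Scaled *NFAT5* (2 of 2) was at 6.88 to 8.81 in FW00K against 4.77 to 5.98 in FW33K. Of all tested genes, 54.5% had such a gap between these groups after scaling.

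In whole kidney, fewer cells of a type and less RNA per cell cannot be told apart. Markers of the cell types that a kidney sample can hold were looked up where an identifier was known, and many moved in the same comparison. Most known identifiers came from the study's list of salt-responsive genes, chosen on these same libraries. Counts of called markers are therefore not independent evidence of a response. All 4 podocyte genes looked up (*NPHS1*, *PODXL* and both copies of *WT1*) were called lower in FW33K than in FW00K, and their FPKM summed to between 224 and 293 (FW00K), 82.4 and 90.2 (FW11K), 26.9 and 30.3 (FW33K) and 26.8 and 106 (SW33K). Over all tested genes, 49.6% were called lower. Of the blood cell genes, 5 of 21 had an identifier, 4 of these were called lower, and the sum was between 505 and 546 (FW00K), 523 and 1118 (FW11K), 73.9 and 156 (FW33K) and 56.3 and 97.1 (SW33K). In FW00K most of this sum was *CORO1A*, with a mean of 415 FPKM there. The gene not called, *SLC4A1* (1 of 2), went the other way in its means, at 19.8 FPKM in FW00K, 139 in FW11K and 41.6 in FW33K. Its FW33K libraries were at 2.63, 62.2 and 59.9. Of the tubule genes, 3 of 14 had an identifier, 2 were called lower (*SLC12A1* and *SLC12A3*), and the sum was between 345 and 375 (FW00K), 71.6 and 195 (FW11K), 46.6 and 97.5 (FW33K) and 74.6 and 283 (SW33K). *STAR*, the only identified gene of 5 for interrenal cells, ran from 0 to 3.95 FPKM, and none of 4 endothelial genes had an identifier. *STAR* was at 0 in FW33K replicate 1 and no other marker was at 0 in any library. After median-ratio scaling, the calls were 4 of 4 podocyte genes lower, 2 of 5 blood cell genes lower, and 1 tubule gene of 3 lower and 1 higher, where 7.70% of genes were called lower and 11.1% higher. The part of these cell types in the levels of NFAT5 was not tested.

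From FW00K to FW11K, a milder rise in salinity, the log2 change was -0.96 ± 0.23 for *NFAT5* (1 of 2) (SE, limma adjusted p = 0.0165) and -0.91 ± 0.29 for *NFAT5* (2 of 2) (SE, limma adjusted p = 0.0517). The mean FPKM was 2.23-fold and 2.02-fold lower in FW11K, and the libraries did not overlap for either copy, a gap that 44.7% of tested genes showed. Neither copy passed the threshold, which 4.46% of genes did. The same held in a fit of the libraries of these treatments alone (limma adjusted p = 0.0149 and 0.0151). The outcome was near the threshold and moved with the fit. SW33K replicate 1 belongs to neither group and enters through the common estimate of spread. Without it both copies passed (limma adjusted p = 0.00166 and 0.00699 at the same fold changes). In that fit 2167 of the 15503 tested genes passed, and SW33K was left with the closely alike replicates 2 and 3, which lowers its spread. With no filter on low values copy 1 passed (limma adjusted p = 0.00876), as did 1022 of 20860 genes. After scaling, the changes were -0.59 and -0.54 (limma adjusted p = 0.0413 and 0.0299), not called where 8.04% of genes were, and each still more than 0.5 below the median gene at 0.02.

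From FW11K to FW33K both copies were lower again on the deposited values, by about as much as the median gene. The log2 change was -0.67 for *NFAT5* (1 of 2) (limma adjusted p = 0.0281) and -0.72 for *NFAT5* (2 of 2) (limma adjusted p = 0.0554), beside a median of -0.82. Neither passed the threshold, which 25.1% of genes did, and neither passed in a fit of these treatments alone (limma adjusted p = 0.0143 and 0.0459). Without SW33K replicate 1 both did (limma adjusted p = 0.00399 and 0.00959), in a fit where 6502 of the 15503 tested genes passed. That fit again kept only the closely alike replicates 2 and 3 of SW33K. The libraries did not overlap for either copy or for 66.6% of genes. After scaling the signs turned, to 0.02 (95% interval -0.39 to 0.42) and 0.07 (95% interval -0.26 to 0.41), with no call where 14.5% of genes had one. The libraries of the groups then overlapped for both copies, and did not for 43.1% of genes. On the scaled values the levels of FW11K and FW33K could thus not be put in order.

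**Figure D2:**
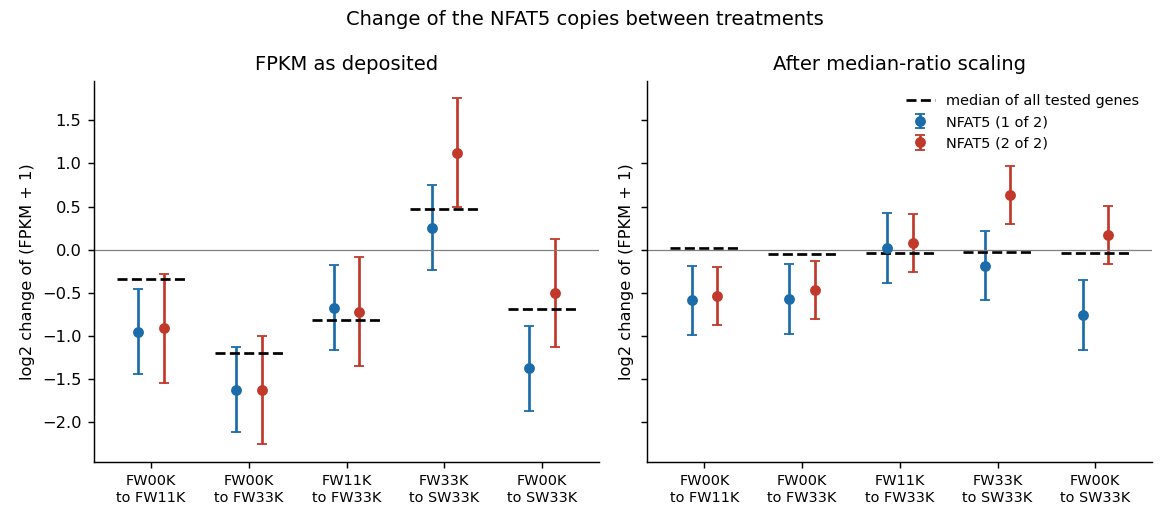
Log2 change of (FPKM + 1) of each NFAT5 copy in 5 comparisons, on the deposited values (left) and after median-ratio scaling (right). Points are limma estimates with 95% confidence intervals, and the dashed line is the median of all 15503 tested genes. From FW00K to FW33K the copies change by -1.63 each on the deposited values, and by -0.57 (copy 1) and -0.47 (copy 2) after scaling. Without the added 1, the mean deposited FPKM is 4.35-fold and 3.64-fold lower. In both comparisons with SW33K, which share the SW33K libraries, the estimates of the copies lie apart. Their intervals overlap from FW33K to SW33K on the deposited values.

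The comparison of FW33K with SW33K sets the populations side by side at the same salinity. *NFAT5* (2 of 2) had a 2.60-fold higher mean FPKM in SW33K, with a log2 difference of 1.13 (95% interval 0.50 to 1.76, limma adjusted p = 0.0333). *NFAT5* (1 of 2) differed by 0.25 (95% interval -0.24 to 0.75, limma adjusted p = 0.452). Neither copy passed the threshold, which 1.43% of genes did. Libraries did not overlap for *NFAT5* (2 of 2), as for 31.3% of genes, and did so for *NFAT5* (1 of 2). The difference of *NFAT5* (2 of 2) exceeded that of 89.5% of the tested genes.

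Leaving out SW33K replicate 1 changed the call here too. That library had a median of 5.43 FPKM over the tested genes, against 10.99 and 10.56 in SW33K replicates 2 and 3. Without it the log2 difference of *NFAT5* (2 of 2) was 1.44 (limma adjusted p = 0.00116). In that fit 3584 of the 15503 tested genes were called, beside 221 in the fit of all libraries. The only SW33K libraries left in it were replicates 2 and 3, with r = 0.991 across genes. Its spread within SW33K thus rests on closely alike libraries, and its p-values are to be read with that limit. After scaling, all 3 SW33K libraries were close together, at 8.80, 9.20 and 9.16, against 4.77, 5.98 and 5.74 in FW33K, and the difference was 0.63 (95% interval 0.30 to 0.97, limma adjusted p = 0.0223), not called where 4.32% of genes were. Such a gap was found for 41.1% of genes after scaling. *NFAT5* (1 of 2) was at 2.67, 2.18 and 2.22 in SW33K and 3.90, 2.17 and 2.56 in FW33K on that scale, and the difference turned to -0.19 (95% interval -0.59 to 0.22). The alignment allowed 3 mismatches in reads of saltwater fish and 2 in those of freshwater fish, and the effect of this allowance cannot be told apart from that of the population.

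Between FW00K and SW33K, the fish at salinities near those of their habitats, *NFAT5* (1 of 2) was lower in SW33K and was called. Its mean FPKM was 3.28-fold lower, with a log2 change of -1.38 ± 0.23 (SE, limma adjusted p = 0.000783), in a comparison in which 21.8% of genes were called, 20.1% as lower. The call was kept after median-ratio scaling (-0.76, limma adjusted p = 0.00892, with 19.7% of genes called) and was lost when replicates 2 and 3 were averaged (-1.49, limma adjusted p = 0.0543) and under quantile normalization (-0.43, limma adjusted p = 0.102). *NFAT5* (2 of 2) had a log2 change of -0.51 (95% interval -1.14 to 0.12, limma adjusted p = 0.174), which turned to 0.17 after scaling (95% interval -0.17 to 0.51). On the deposited values the libraries did not overlap for either copy or for 61.7% of genes. This comparison shares its FW00K libraries with the first 2 comparisons and its SW33K libraries with the one before. Population, salinity and the mismatches allowed in alignment all differ between FW00K and SW33K, and their effects cannot be told apart.

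The levels of the copies can be set against each other within a library, and this ratio is free of any scaling of whole libraries. *NFAT5* (2 of 2) stood at 1.44, 1.95 and 1.74 times the FPKM of *NFAT5* (1 of 2) in FW00K. The ratio was 1.91, 1.77 and 1.92 in FW11K, and 1.22, 2.75 and 2.24 in FW33K. It was 3.30, 4.22 and 4.12 in SW33K. Every SW33K library thus had a higher ratio than every one of the 9 freshwater libraries, and the 3 freshwater groups overlapped. How often ratios of other genes show such a gap was not tested. For single genes on the deposited values, libraries did not overlap for 31.3% between FW33K and SW33K and for 61.7% between FW00K and SW33K. The geometric mean of the ratio was 1.70, 1.87 and 1.96 in FW00K, FW11K and FW33K, and 3.86 in SW33K.

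Across the 4 treatments the log2 ratio differed (F = 7.62, exact permutation test over 15400 partitions of the 12 libraries, p = 0.0181). When replicates 2 and 3 were averaged, p was 0.133 (exact permutation test, 105 partitions). The log2 ratio of copy 1 to copy 2 was lower in SW33K by 1.18 ± 0.17 than in FW00K, by 1.05 ± 0.12 than in FW11K and by 0.98 ± 0.37 than in FW33K (difference ± SE). Each of these 3 differences had p = 0.1 in a two-sided exact permutation test, the smallest that 3 libraries against 3 can give, and 0.2 after adjustment over the 6 pairs of treatments. The 3 pairs of freshwater treatments differed by -0.14 ± 0.13, -0.21 ± 0.37 and -0.07 ± 0.35, with exact permutation p of 0.5, 0.7 and 1.0. The FW33K libraries ranged most widely, from 1.22 to 2.75 as a ratio of copy 2 to copy 1. As the ratio rests on 2 genes of 1 genome build, differences in how well reads of the saltwater fish align to each copy cannot be told apart from differences in expression.

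**Figure D3:**
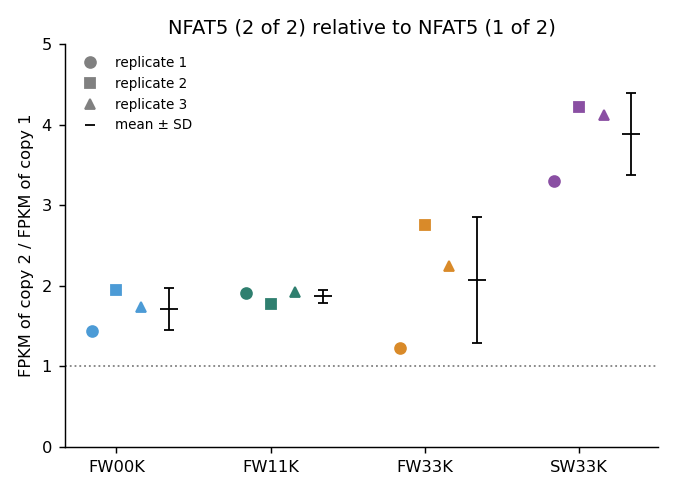
FPKM of *NFAT5* (2 of 2) divided by FPKM of *NFAT5* (1 of 2) in each of the 12 libraries, by treatment. Symbols are single libraries and the bar is the mean ± SD of 3 libraries, with equal levels at the dotted line. All libraries lie above 1, and the SW33K libraries at 3.30 to 4.22 lie above the 9 freshwater libraries at 1.22 to 2.75. How often ratios of other genes show such a gap was not tested.

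How alike the copies were over the 12 libraries depended on the scale. The log2 levels of the copies had a Pearson r of 0.774 on the deposited values, where the median r of *NFAT5* (1 of 2) with all genes was 0.665, and the shift of whole libraries enters both. After scaling r was 0.0936, beside a median of 0.0239 for *NFAT5* (1 of 2) with all genes. Among the genes ranked by r with copy 1, copy 2 was at 5049 of 15502 (7018 after scaling). None of the 5 genes most like each copy on the deposited values had a known symbol. After scaling, *CLIC4* (ENSGACG00000007280), a chloride intracellular channel protein, was the gene second most like *NFAT5* (1 of 2), with r = 0.970 over 12 libraries. *SGK1*, the serum- and glucocorticoid-regulated kinase that promotes sodium uptake in the mammalian kidney tubule, had r = 0.944 with *NFAT5* (1 of 2) (0.815 after scaling) and r = 0.869 with *NFAT5* (2 of 2) (0.427 after scaling). By r, *SGK1* ranked 474 of 15502 genes for copy 1 (323 after scaling) and 2088 for copy 2 (2878 after scaling). These correlations describe libraries that share treatments and are given without a test.

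*SGK1* (ENSGACG00000010973) showed the levels behind that likeness. Its FPKM was 84.2, 99.1 and 94.8 in FW00K, 50.97, 32.0 and 32.5 in FW11K, 23.1, 22.3 and 21.7 in FW33K, and 16.5, 46.1 and 45.4 in SW33K. It was lower in every library at 11 or 33 g/L than in any FW00K library. Libraries did not overlap with FW00K, in either direction, for 44.7% of tested genes in FW11K, 83.5% in FW33K and 61.7% in SW33K. From FW00K to FW33K the log2 change of *SGK1* was -2.001 ± 0.36 (SE, limma adjusted p = 0.000653), where 49.6% of genes were called lower. It became -0.66 after scaling (limma adjusted p = 0.0751), not called where 18.8% of genes were. Nor was *SGK1* called when replicates 2 and 3 were averaged (-1.96, limma adjusted p = 0.0211), where 1023 of 15503 genes were.

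Of the genes linked in mammals to NFAT5 or to the handling of organic osmolytes, only those that the study paired with an identifier could be looked up. These were 3 of 16 genes of osmolyte transport and metabolism, 3 of 18 other genes listed as responding to NFAT5 or to raised tonicity, 1 of 29 kinases and cofactors, and none of 9 genes of the NFAT and Rel family. Aldose reductase and the transporters of myo-inositol, betaine and taurine were therefore not analysed here. Most of the identifiers came from the study's own list of salt-responsive genes, which was chosen on these libraries, so that counts over them are not independent evidence of a response. From FW00K to FW33K all 7 were called, 2 higher and 5 lower, where 1.71% of tested genes were called higher and 49.6% lower. After scaling 4 were called, *CDO1* and *HAS2* higher and *MIOX* and *ATP1B1* (2 of 2) lower, where 11.1% of genes were called higher and 7.70% lower. The same 4 genes were called when replicates 2 and 3 were averaged on the deposited values, where 1023 of the 15503 genes were called.

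Among the osmolyte genes the directions differed. *MIOX*, which starts the breakdown of myo-inositol, was at 189, 152 and 153 FPKM in FW00K and 184, 258 and 254 in FW11K. It was at 0.0812, 0.0993 and 0.167 FPKM in FW33K and 0.250, 5.17 and 4.98 in SW33K, so that both groups at 33 g/L were far below the others. The log2 change of *MIOX* from FW00K to FW33K was -7.21 (limma adjusted p = 7.2e-06), and -6.48 after scaling. *CDO1*, cysteine dioxygenase, which leads from cysteine towards taurine, was at 11.9, 27.3 and 25.1 FPKM in FW00K and 386, 382 and 358 in FW33K. It rose by 4.15 on the log2 scale (limma adjusted p = 7.87e-05), and SW33K stood between at 172, 145 and 138. *CSAD*, which takes the following step towards taurine, was lower in FW33K, at 12.4, 25.7 and 26.04 FPKM against 40.8, 110 and 115 in FW00K. Its log2 change was -1.93 (limma adjusted p = 0.00156), and -0.60 after scaling (limma adjusted p = 0.229), no longer called. The SW33K libraries were lower still, at 3.17, 5.50 and 5.82 FPKM. After scaling, *CSAD* in SW33K was at 4.69 to 5.50, below 26.7 to 40.2 in FW33K and 24.4 to 77.7 in FW00K.

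Of the other genes, *HAS2*, a hyaluronan synthase, was at 0.280, 0.898 and 0.724 FPKM in FW00K and 273, 646 and 602 in FW33K. Its log2 change was 8.20 ± 0.50 (SE, limma adjusted p = 6.41e-06). The saltwater fish at the same salinity did not share this level, with 9.08, 1.40 and 1.53 FPKM in SW33K and a log2 difference from FW33K of -6.91 (limma adjusted p = 6.25e-05), a direction in which 0.387% of genes were called. *ATP1B1* (2 of 2), a beta subunit of the sodium pump, was lower in FW33K than in FW00K, with a log2 change of -2.76 (limma adjusted p = 0.000187), and -1.39 after scaling (limma adjusted p = 0.00227), still called. *HSP90AA1* (1 of 2), a chaperone, fell by 1.92 (limma adjusted p = 0.00112) and was not called after scaling (-0.74, limma adjusted p = 0.0927).

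**Figure D4:**
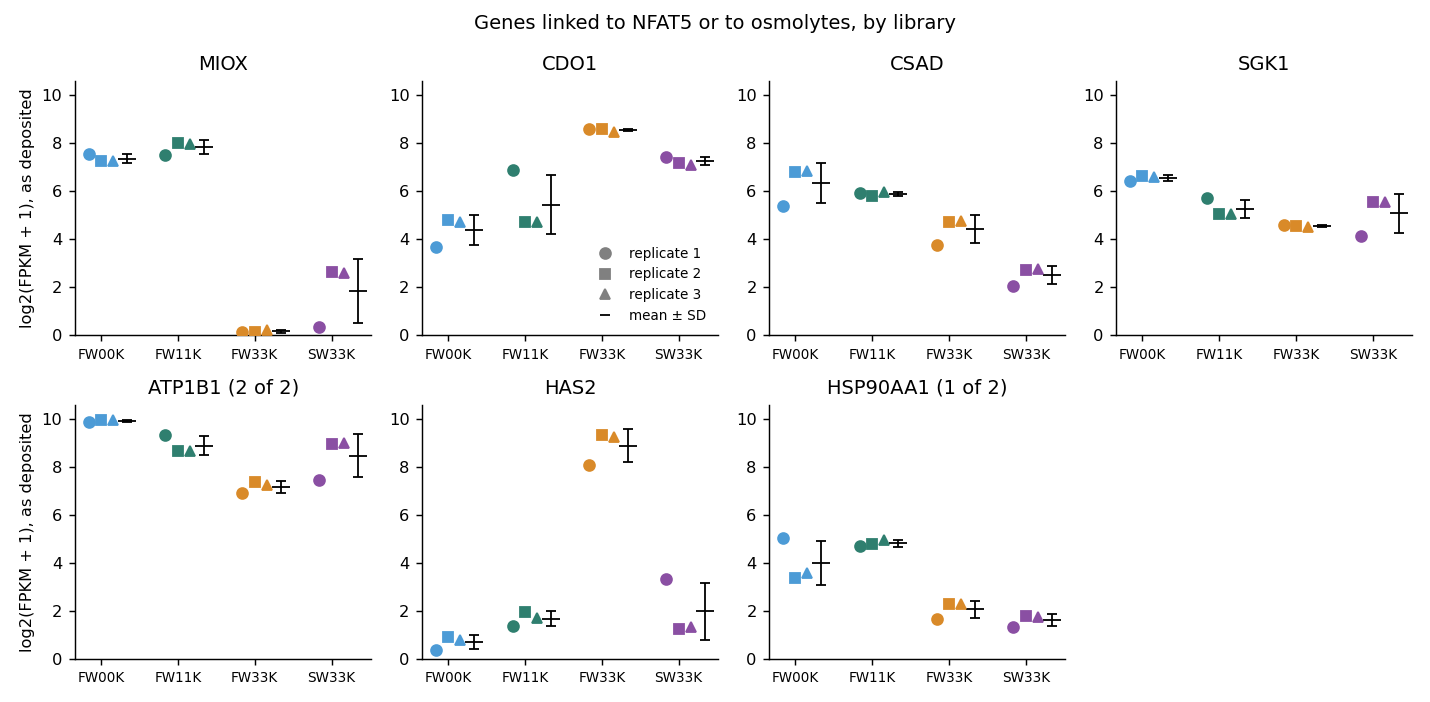
Levels of the 7 identified genes linked in mammals to NFAT5, tonicity or osmolytes, as log2(FPKM + 1) of the deposited values in each library, by treatment. Symbols are single libraries and bars are the mean ± SD of 3. *CDO1* and *HAS2* are higher in FW33K than in FW00K and the other 5 genes are lower, with *MIOX* near 0 in FW33K.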

How the data were processed

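Kidney polyA RNA of 12 libraries had been sequenced as 100-base read pairs. The authors trimmed reads to 75 bases, removed those with base quality below 20, aligned them with TopHat2 2.0.3 to BROADS1, masked at polymorphic sites (2 mismatches for FW fish, 3 for SW fish), and deposited FPKM values from Cufflinks 2.0.2, with no scaling between libraries visible. Whether the library kit kept strand is not given in the sources used here. Groups were taken from sample titles. FPKM holds no read counts, so no count model was used and the counts behind each value are unknown. The read numbers that the study lists for its libraries differ widely, with FW11K and FW33K replicate 1 the lowest, and were not used in the tests.

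Genes averaging 1 FPKM or more were fitted with limma 3.58.1 (trended eBayes, R 4.3.3) on log2(FPKM + 1) in 1 fit of 12 libraries, with a Benjamini-Hochberg threshold of 0.01, and checked on simulated data. The ratio of the copies was tested in Python 3.11.15 (scipy 1.17.1, numpy 2.4.6, pandas 2.3.3, threshold 0.05), and plots were drawn with matplotlib 3.10.9. Alternatives were a pseudocount of 0.1 (for the ratio, 1), no filter, a minimum mean of 5 FPKM, quantile normalization, median-ratio scaling, only the compared libraries, replicate number as a block, replicates 2 and 3 averaged, and leaving out each library. Averaging together with scaling was chosen after seeing the data. Members, gene lists and tests were chosen with earlier results of these data known. Gene symbols, 1396 in all, came from the study's tables and panel titles. Named genes were both NFAT5 copies, *SGK1*, up to 3 called genes a list in each direction from FW00K to FW33K, and those of the 5 genes most like each copy with a symbol. Some genes of the lists are not reported here, and sequences and positions of the genes were not analysed here.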

Additional observations from a re-analysis of the deposited data

How the results depend on the processing

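Scaling changed the most. For *NFAT5* (1 of 2), the log2 change from FW00K to FW33K (-1.63) became -0.28 under quantile normalization, -0.57 under median-ratio scaling, -1.64 when replicates 2 and 3 were averaged and -0.49 when averaging and scaling were combined, and none was called. From FW00K to SW33K (-1.38) it was not called at -0.43 (quantile), -1.49 (averaged) and -0.73 (averaged and scaled). From FW11K to FW33K (-0.67) it turned to 0.017 (scaled), 0.12 (quantile) and 0.062 (averaged and scaled). From FW33K to SW33K (0.25) it turned to -0.19, -0.14 and -0.24 in the same order. With no filter on low values, the change from FW00K to FW11K was called at the same size, -0.96 (limma adjusted p = 0.00876).

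For *NFAT5* (2 of 2), the change from FW00K to FW33K (-1.63) was not called at -0.47 (scaled), -0.32 (quantile), -1.71 (averaged) and -0.46 (averaged and scaled). From FW00K to SW33K (-0.51) it turned to 0.17 (scaled), 0.29 (quantile) and 0.21 (averaged and scaled), and from FW11K to FW33K (-0.72) to 0.072 (scaled) and 0.12 (quantile). *SGK1* turned from -0.72 to 0.22 (scaled), 0.11 (quantile) and 0.19 (averaged and scaled) from FW11K to FW33K, and from 0.53 to -0.077 (scaled) and -0.25 (averaged and scaled) from FW33K to SW33K. The ratio of the copies had p = 0.133 in the exact permutation test with averaging. Of the 7 linked genes called, 4 were called after scaling, 4 after quantile normalization, 4 with averaging and 0 with averaging and scaling together. The count of 0 came from limma with 2 values a treatment, where 4 of the 7 genes had an unadjusted p under 0.05, and only 1 of all 15503 genes was called (1023 with averaging alone), so it says nothing particular to these genes. Scaling removes the common shift and averaging leaves fewer samples, and the part of either in these changes was not tested.

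Leaving out each library in turn, the log2 change of *NFAT5* (1 of 2) ranged from -1.01 to -0.90 (FW00K to FW11K), -1.67 to -1.57 (FW00K to FW33K), -0.72 to -0.62 (FW11K to FW33K), 0.17 to 0.41 (FW33K to SW33K) and -1.46 to -1.22 (FW00K to SW33K). That of *NFAT5* (2 of 2) ranged from -0.99 to -0.86, -1.77 to -1.42, -0.86 to -0.51, 0.92 to 1.44 and -0.67 to -0.19. The exact permutation p of the ratio ran from 0.00039 without FW33K replicate 1 to 0.0457 without SW33K replicate 2, and the count of linked genes stayed at 7.

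Replicate numbers do not pair the libraries by the labels. Deviations of same-numbered libraries from their group means correlated at -0.05 to 0.42, with 13 of 18 pairs over 0.1. For differently numbered libraries the range was -0.30 to 0.13, with 1 of 36 pairs over 0.1. What same-numbered libraries share was not tested. With the replicate number as a block, the NFAT5 changes were called as without it, with -1.63 for both copies from FW00K to FW33K (limma adjusted p = 0.000259 and 0.000479), and the ratio had p = 0.0451 (exact permutation within numbers, 576 arrangements). Precision was limited by 3 libraries a treatment and by the unknown counts behind each FPKM value.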

Other observations

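Genes with a known symbol were also ranked by their likeness to each copy, a list added after the data had been seen. On the deposited values, *PRODH* (r = 0.989), *DHRS9* (r = 0.987) and *CLIC4* (r = 0.987) were most like *NFAT5* (1 of 2) over 12 libraries. *DPYD* (r = 0.987), *SLC34A1*, the sodium-phosphate cotransporter of the mammalian proximal tubule (r = 0.982), and *SLC23A1*, a sodium-dependent vitamin C transporter (r = 0.980), were most like *NFAT5* (2 of 2). After median-ratio scaling the nearest were *CLIC4*, *GCGR* (2 of 2) (r = 0.927) and *SLC13A5* (1 of 2) (r = 0.925) for copy 1, and *DSP* (2 of 2) (r = 0.948), *HRH2* (1 of 2) (r = 0.937) and *MAPRE3* (1 of 2) (r = 0.933) for copy 2. The 3 nearest named genes of the copies had no gene in common on either scale. How often lists this short share a gene was not tested, so their lack of overlap does not set the copies apart. Symbols were known for 1396 genes, most of them chosen by the study on these libraries, and the correlations are given without a test.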
